A study of Mus musculus with 19 samples.

Results

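The VAS samples are 4 of the 19 endometrial RNA samples of this series, and were compared here with the 3 samples of unmated females in estrus. They were chosen by the prefix of their columns in the count table, VAS1 to VAS4, and the columns that begin with SVX_VAS belong to another group. All females were wild-type (WT) C57Bl/6 adults. The VAS females had been mated with Balb/c males that had undergone surgery, and their endometrium was taken on day 3.5 post coitum (pc). The sample titles and the column prefixes name different surgeries for this set, so no surgery is attached to it here. The estrus samples, CONT1, CONT2 and CONT4, came from untreated females. Another set, INT1 to INT4, came from females mated with intact Balb/c males and sampled on the same day, and was used as a second reference. The study's methods state that the endometrium was scraped from the myometrium, and its text calls the estrus and intact-mated samples pooled biological replicates. Whether the VAS samples were pools is not given in the sources used here. Estrus tissue was taken late in the evening and the tissue of mated females at midday. Mating, hormonal stage and time of day therefore changed together between VAS and CONT and cannot be told apart.

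In estrus the mouse endometrium has just been exposed to high estrogen, and its luminal epithelium is tall, proliferative and secretory. A sterile mating triggers pseudopregnancy: the corpora lutea that follow ovulation are maintained and secrete progesterone, as in early pregnancy, even where no embryo forms. Progesterone acting on its receptor in the epithelium induces Indian hedgehog, which signals to the stroma beneath, and estrogen-driven growth of the epithelium stops. At about the stage sampled here, a small rise of estrogen on this background opens the window in which a blastocyst can attach.

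Each sample held between 14040286 and 31781270 counts over 49089 genes, so 3 counts corresponded to between 0.107 and 0.226 CPM, the unit used throughout, in which counts are scaled by library size and by the composition factors of edgeR (TMM). VAS2 and VAS3 stood apart from the other 17 samples of the series in how their reads fell on genes. Genes annotated as antisense took 0.470% and 0.466% of their counts, against 1.28% to 1.39% elsewhere. Malat1, a nuclear noncoding RNA, took 0.0703% and 0.0723% against 0.724% to 1.41%, and the 20 most abundant genes took 1.84% and 1.82% against 5.49% to 7.46%. Ribosomal RNA genes took 0.00912% and 0.00948% against 0.149% to 0.690%. Across genes, which are not independent replicates, VAS2 and VAS3 correlated with each other at r = 0.984 on the log2 CPM scale and with VAS1 and VAS4 at 0.750 to 0.777. Relative to VAS1 and VAS4, the antisense genes had a median log2 difference of -4.39, whereas protein-coding genes with no gene on the opposite strand had one of 0.08. The abundant genes moved too: of 54 such protein-coding genes among the 100 most abundant, 70.4% were more than 2-fold lower in VAS2 and VAS3. Calls against estrus are therefore given below with all 4 VAS samples and again from VAS1 and VAS4 alone, where 16949 of the 17222 genes passed the filter on low counts, and 151 genes called higher with all 4 were not tested. Numbers from VAS1 and VAS4 alone are of as many members as with all 4 unless another total is given. The part of this difference in each result was not tested beyond that.

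**Figure D1:**
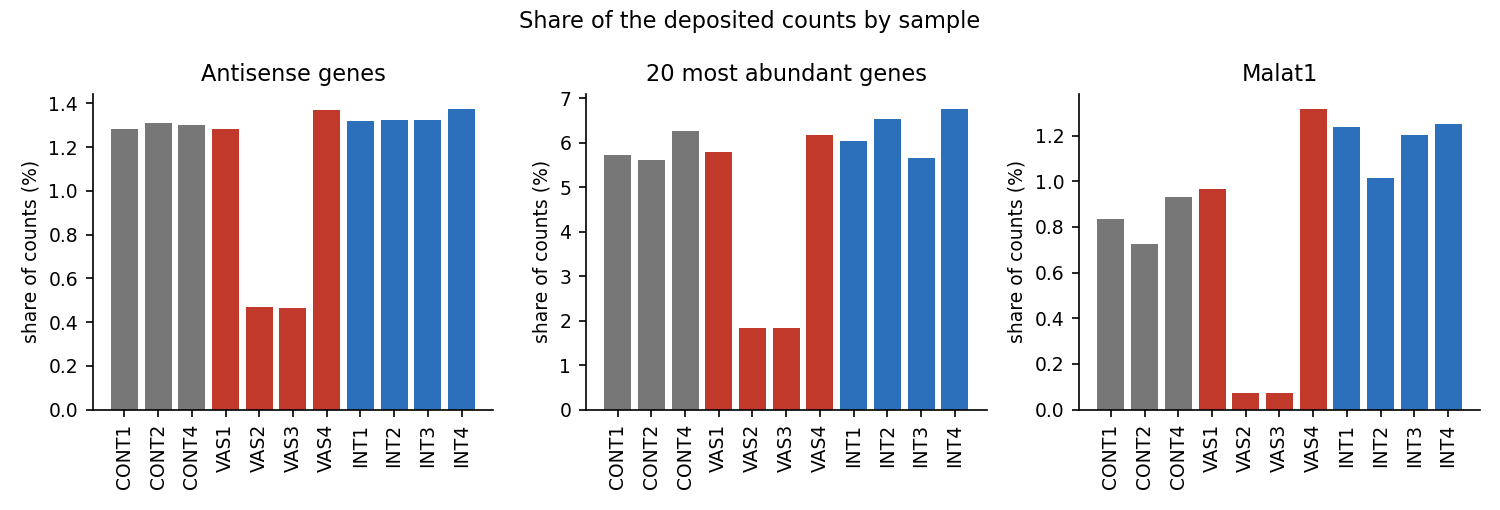
Share of each sample's counts, in percent, on antisense genes (left), on the 20 most abundant genes (middle) and on Malat1 (right), with 1 bar per sample for CONT (grey), VAS (red) and INT (blue). VAS2 and VAS3 lie below all other samples in each panel, with antisense shares of 0.470% and 0.466%.

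VAS1 and VAS4 also differed from one another. VAS1 correlated with the estrus samples at 0.917 to 0.932 and VAS4 at 0.778 to 0.810. Of the INT samples, VAS1 was closest to INT1 and INT2 (0.966 and 0.986) and VAS4 to INT3 and INT4 (0.985 and 0.991), and the INT samples showed the same division among themselves, with 0.980 and 0.979 within these pairs and 0.920 to 0.950 across them. The 3 estrus samples correlated at 0.987 to 0.990. In a principal component analysis of the 5 samples without VAS2 and VAS3, the first component held 86.8% of the variance, with the estrus samples at -72.3, -46.1 and -51.2, VAS1 at 45.4 and VAS4 at 124. With all 7 samples it held 75.7%, with estrus at 105, 90.0 and 94.3, VAS1 at 44.8, VAS4 at 4.34 and VAS2 and VAS3 at -168 and -171, and the VAS and CONT positions did not overlap (p = 0.0571 in an exact two-sided permutation test, below which 3 samples against 4 cannot go).

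**Figure D2:**
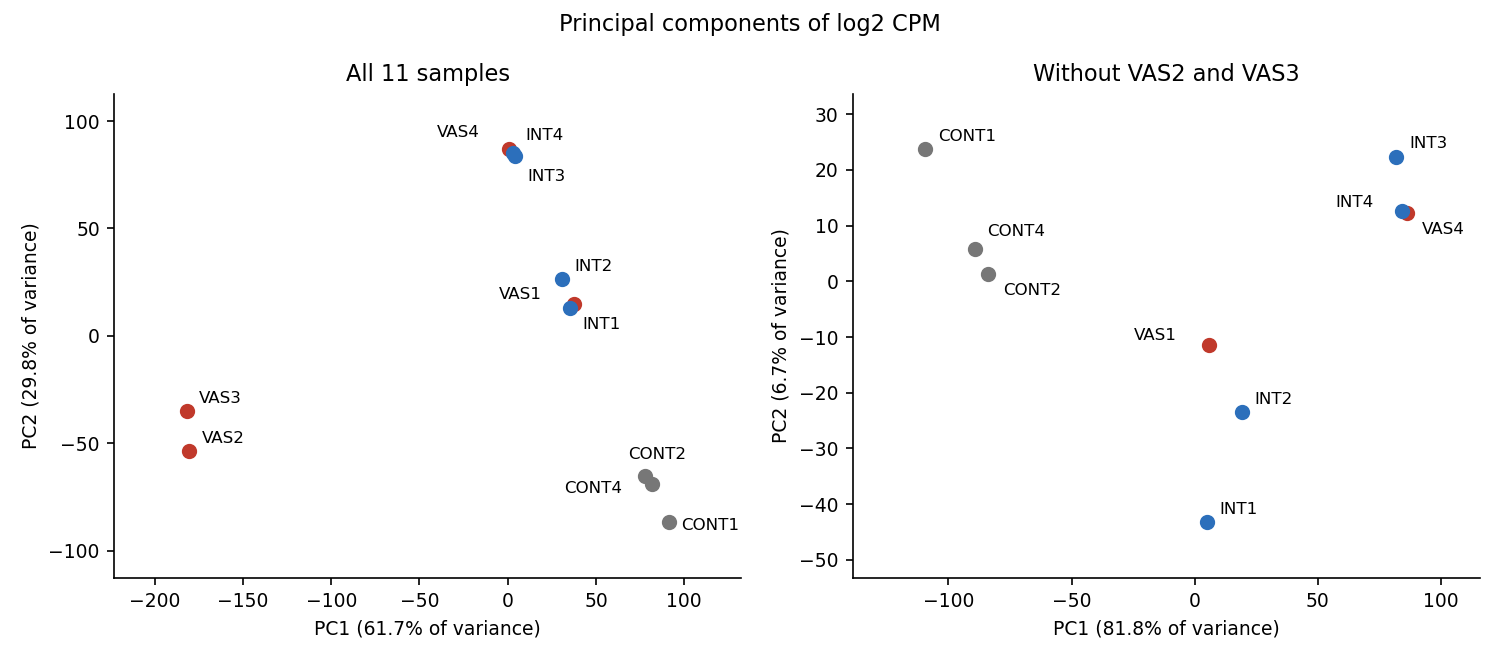
Positions of the samples on the first and second principal components of log2 CPM, for CONT, VAS and INT together (left) and without VAS2 and VAS3 (right), with each axis labelled by its share of the variance. On the right, where the first component holds 81.8%, the estrus samples lie from -109 to -83.8, VAS1 and the first 2 INT samples from 5.14 to 19.1, and VAS4 and the other 2 INT samples from 81.9 to 86.3.

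The difference from estrus was broad. Of 17222 genes tested with edgeR's quasi-likelihood test, 3998 (23.2%) were higher and 2967 (17.2%) lower in the VAS samples at a Benjamini-Hochberg adjusted p (FDR) of at most 0.05 and a fold of at least 1.5. From VAS1 and VAS4 alone, 3732 of 16949 genes (22.0%) were higher and 2404 (14.2%) lower. Calls are those of this test unless another tool is named. Limma-voom and DESeq2 were also run without VAS2 and VAS3, after the data had been seen, and gave 3589 and 3837 genes higher and 2716 and 2429 lower. A total of 5226 genes (30.3%) were called in the same direction both ways, 3228 higher and 1998 lower, and 0 were called in opposite directions. They had a median log2 fold change (logFC, VAS minus estrus) of 1.51 among the higher and -1.19 among the lower genes. Over all genes tested the median logFC was -0.07, and in 9476 genes (55.0%) the VAS and CONT values did not overlap. Of the antisense genes, 5.32% were called higher with all 4 samples and 21.7% from VAS1 and VAS4 alone, whereas the share of protein-coding genes called higher was 24.1% and 21.4%. The balance of higher to lower calls depended on scaling and tool: 57.4% of called genes were higher in the main test, 70.5% under upper quartile scaling (4947 higher, 2073 lower), 44.5% with limma-voom (3893 and 4852) and 67.8% when the test itself was set against the fold threshold (2928 and 1390).

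**Figure D3:**
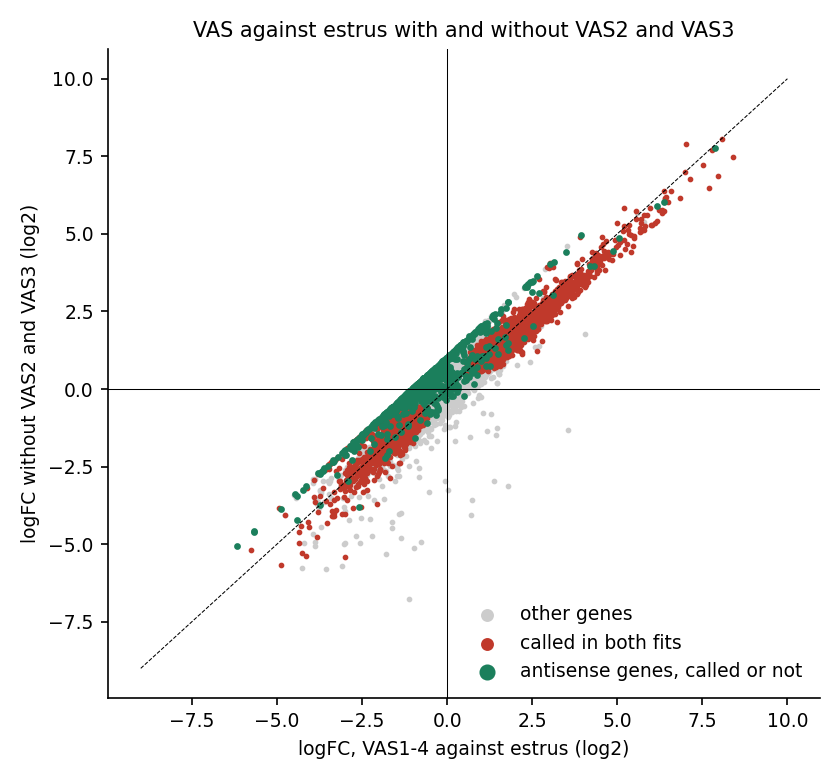
LogFC of each gene tested in both fits, VAS against estrus, with all 4 VAS samples (horizontal axis) and from VAS1 and VAS4 alone (vertical axis), on the log2 scale, with a dashed line where both are equal. Red points are the 5226 genes called in 1 direction both ways, and green points, the antisense genes, lie mostly above the dashed line, that is, lower when VAS2 and VAS3 are included.

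Some genes named below have exons that overlap a gene on the opposite strand, and whether the counting used strand is not given in the sources used here, so reads of the partner could be included. They are Ccnd2, Cftr, Csf1r, Dll4, Fn1, Foxp3, Gata6, Gli1, H19, Hand2, Hhip, Hoxa11, Igf2, Il1a, Nr2f2, Padi2, Slc2a1 and Wnt11. Values of a gene are given below in the order CONT1, CONT2 and CONT4 for estrus and VAS1 to VAS4 for VAS, and the error after ± is the standard error of the logFC.

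Genes that progesterone is known to induce in the uterus were mostly higher in VAS. Of 24 tested, 16 were called higher and 1 lower, with a median logFC of 1.96, and from VAS1 and VAS4 alone 16 were higher and 0 lower, 15 of them the same genes, with a median of 2.09. Without VAS1 or without VAS4 the number lower was 2. Their summed level was 939 to 1248 CPM in the estrus samples and 1749 to 3998 CPM in VAS. In whole tissue, a change in the number of cells of a type and a change in RNA per cell cannot be told apart, here and in every result that follows. Indian hedgehog (Ihh), the epithelial ligand named above, had 0.476, 1.04 and 3.41 CPM in estrus and 18.7, 33.6, 32.7 and 45.5 CPM in VAS (logFC 4.38 ± 0.51, FDR 5.97e-06, and 4.38, FDR 4.9e-05, from VAS1 and VAS4 alone). The lowest VAS value lay above the highest estrus value by several fold. Amphiregulin (Areg), an epidermal growth factor receptor ligand of the luminal epithelium, had 0.238, 0.108 and 0.152 CPM in estrus and 1.24, 4.76, 8.79 and 7.7 CPM in VAS (logFC 5.07 ± 0.68, FDR 1.9e-05, and 4.74, FDR 0.000284, from VAS1 and VAS4 alone). VAS1 was the lowest of the 4 and still above every estrus sample. Calcitonin (Calca), another progesterone-induced peptide of the epithelium, had at most 3 counts in any estrus sample, with 0, 0.108 and 0.0758 CPM there and 0.564, 8.77, 4.51 and 5.44 CPM in VAS (here the ratio of pooled counts is given, ratio 71.8, 95% exact counting interval 27.8 to 265, and 39.4, 14.9 to 148, from VAS1 and VAS4 alone). Acod1, an enzyme that makes itaconate, had 0.178, 0.215 and 0.531 CPM in estrus and 10.7, 70.6, 66 and 109 CPM in VAS (logFC 7.79 ± 0.86, FDR 4.52e-06, and 7.69, FDR 4.76e-05, from VAS1 and VAS4 alone), again with VAS1 lowest. Il13ra2, a decoy receptor for interleukin 13, had 5.47, 11.1 and 6.75 CPM in estrus and 13.8, 31.4, 32.2 and 53.9 CPM in VAS (logFC 2.07 ± 0.39, FDR 0.000351, and 2.10, FDR 0.00193, from VAS1 and VAS4 alone), and its lowest VAS value was close to its highest estrus value. Cxcl15, a chemokine of glandular epithelia, had 0.119, 0.144 and 1.14 CPM in estrus and 25.3, 34.4, 32 and 40.8 CPM in VAS (logFC 6.36 ± 0.52, FDR 7.92e-07, and 6.40, FDR 7.41e-06, from VAS1 and VAS4 alone). The only gene of the list called lower, Errfi1, an inhibitor of the epidermal growth factor receptor, had 181, 227 and 211 CPM in estrus and 117, 108, 97.5 and 159.6 CPM in VAS (logFC -0.78 ± 0.15, FDR 0.000389) and was not called from VAS1 and VAS4 alone, where it missed the fold (logFC -0.58, FDR 0.00733) and limma-voom called it.

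The hedgehog pathway, which runs from the ligand through the receptor Ptch1 to the Gli transcription factors, was higher in most of its parts: 16 of 19 genes tested were called higher and 0 lower, with a median logFC of 2.04, and 16 and 0 from VAS1 and VAS4 alone with a median of 1.53. Ptch1, at once receptor and target of the pathway, had 66.8, 79 and 76.1 CPM in estrus and 193, 265, 253 and 510.1 CPM in VAS (logFC 2.04 ± 0.30, FDR 4.22e-05, and 2.25, FDR 0.000146, from VAS1 and VAS4 alone). VAS1 was lowest, and no VAS value reached down to estrus. Gli1, the transcription factor whose transcription is the usual readout of the pathway, had 3.21, 5.24 and 7.28 CPM in estrus and 84.4, 118, 114 and 183 CPM in VAS (logFC 4.58 ± 0.34, FDR 6.26e-07, and 4.68, FDR 7.33e-06, from VAS1 and VAS4 alone). Hhip, which binds the ligand and limits its spread, had 0.119, 0.251 and 0.607 CPM in estrus and 10.1, 44, 21.2 and 23.3 CPM in VAS (logFC 6.31 ± 0.66, FDR 3.09e-06, and 5.76, FDR 2.49e-05, from VAS1 and VAS4 alone). Nr2f2 (COUP-TFII), the stromal factor that acts below hedgehog, had 110.0, 141 and 132 CPM in estrus and 187, 180.2, 184 and 343 CPM in VAS (logFC 0.81 ± 0.21, FDR 0.00396, and 1.05, FDR 0.00144, from VAS1 and VAS4 alone), and was not called without VAS4, its highest sample (logFC 0.53). Hand2, a stromal progesterone target that restrains epithelial growth, had 6.36, 18.2 and 11.4 CPM in estrus and 33.7, 31.8, 41.9 and 68.5 CPM in VAS (logFC 1.86 ± 0.39, FDR 0.000719, and 2.08, FDR 0.00149, from VAS1 and VAS4 alone). The other hedgehog ligands, Shh and Dhh, were below the filter on low counts.

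The promoters of 3 genes that rose and of 1 that fell (Apobec2, an RNA-editing enzyme relative described among the falls below) are shown here as the stretch of 100 bases just before the RefSeq start of the gene, from the GRCm38.p6 assembly, read 5′ to 3′ on the strand of the gene, with the letters TATAAA in capitals where they occur. The Ensembl genes are ENSMUSG00000029375.6 for Cxcl15 (chromosome 5 from 90794534 to 90803067), ENSMUSG00000029378.5 for Areg (chromosome 5 from 91139599 to 91148432), ENSMUSG00000006538.10 for Ihh (chromosome 1 from 74945315 to 74951672) and ENSMUSG00000040694.3 for Apobec2 (chromosome 17 from 48419231 to 48432728), all on GRCm38. The stretch of Cxcl15 is chr5:90794434-90794533 on the plus strand. The stretch of Areg is chr5:91139499-91139598 on the plus strand, that of Ihh is chr1:74951673-74951772 on the minus strand and that of Apobec2 is chr17:48432729-48432828 on the minus strand.
Cxcl15: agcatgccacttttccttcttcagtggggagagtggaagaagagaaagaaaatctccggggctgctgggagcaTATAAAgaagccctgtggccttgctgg
Areg: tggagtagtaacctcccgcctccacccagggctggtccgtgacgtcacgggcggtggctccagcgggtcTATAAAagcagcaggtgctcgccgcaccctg
Ihh: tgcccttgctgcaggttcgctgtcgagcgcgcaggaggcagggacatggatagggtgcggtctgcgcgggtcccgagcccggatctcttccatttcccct
Apobec2: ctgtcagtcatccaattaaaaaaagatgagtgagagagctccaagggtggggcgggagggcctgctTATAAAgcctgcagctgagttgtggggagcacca
The letters begin at -27 in Cxcl15, -31 in Areg and -34 in Apobec2, counted back from the start, and are not in the Ihh stretch. In windows of 300 bases, 250 before and 50 after the RefSeq start, searched on both strands, TATAAA was present in 4234 of 27025 genes (15.7%), in 1049 of 11450 tested genes that had a promoter (9.16%), in 8 of 18 progesterone-list genes (44.4%) and in 10 of 23 estrogen-list genes (43.5%). Among the genes called both ways it was in 10.5% of those that rose and 9.91% of those that fell. The Gli-binding letters GACCACCCA were in 78 of 27025 windows (0.289%) and in 0 of 17 hedgehog-list windows. The presence of letters is a description of the window and not of binding.

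**Figure D4:**
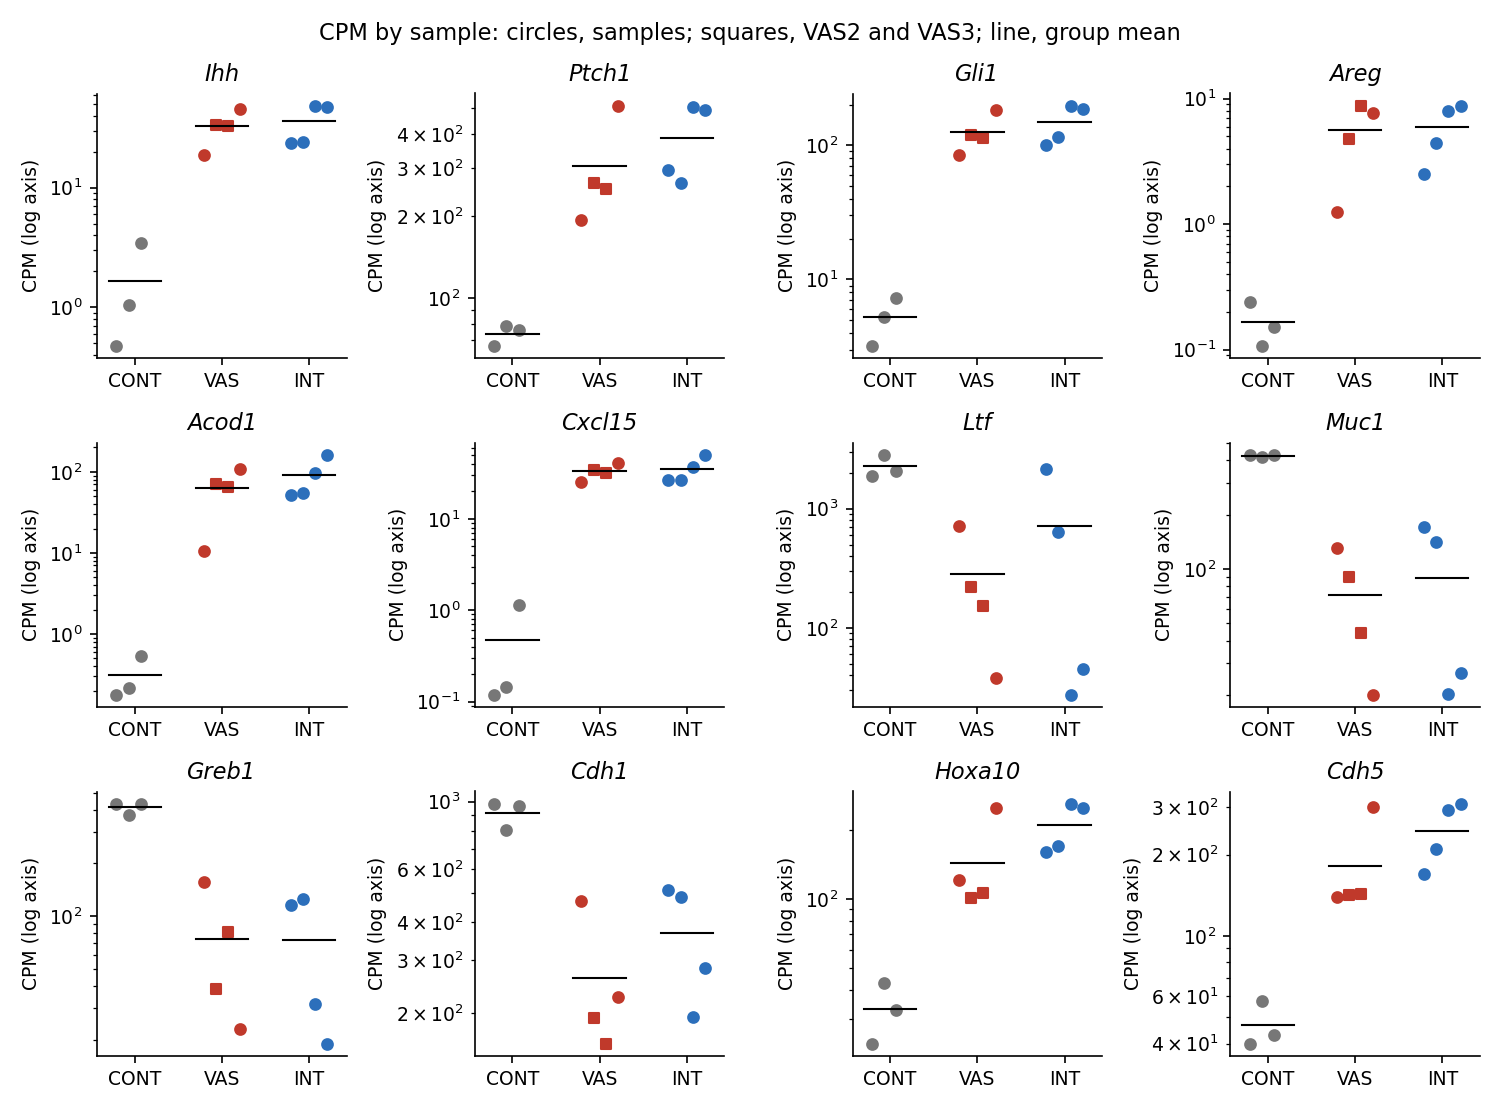
CPM on a log axis in each CONT, VAS and INT sample for selected genes, with squares for VAS2 and VAS3 and a line at the group mean. Ihh, Gli1 and Cxcl15 lie higher in all 4 VAS samples than in all 3 estrus samples, and Ltf spans a wide range within both the VAS and the INT samples.

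Uterine gland genes were mostly higher, at 9 of 16 tested with 1 lower, and 9 and 2 from VAS1 and VAS4 alone (median logFC 2.06 with all 4 and 2.05 from the pair). The number lower was 2 without VAS1 or without VAS2. Their summed level did not follow these counts, at 577 to 606 CPM in estrus and 473, 533, 487 and 859 CPM in VAS1 to VAS4, so 3 of the 4 VAS samples lay below every estrus sample. Foxa2, the transcription factor that marks glandular epithelium, had 2.97, 5.06 and 2.73 CPM in estrus and 7.5, 16.9, 16.6 and 16.6 CPM in VAS (logFC 1.99 ± 0.35, FDR 0.000174, and 1.71, FDR 0.0025, from VAS1 and VAS4 alone). Spink1, a secreted trypsin inhibitor, had 0.476, 1.72 and 0.303 CPM in estrus and 23.8, 13, 15.7 and 85.4 CPM in VAS (logFC 5.18 ± 0.78, FDR 5.23e-05, and 5.82, FDR 3.8e-05, from VAS1 and VAS4 alone). Prss28, an implantation serine protease made by glands, had 0.297, 1.51 and 0.152 CPM in estrus and 1.97, 5.18, 23 and 26.9 CPM in VAS, was called with all 4 (logFC 4.26 ± 1.76, FDR 0.0488) and not from VAS1 and VAS4 alone (FDR 0.0886, although DESeq2 called it there), nor when any of the 3 estrus samples, VAS3 or VAS4 was left out (logFC 3.76 to 5.89). Lif, the gland cytokine required for implantation, was not called with all 4 by edgeR (FDR 0.084, although limma-voom called it lower), at 54.8, 41.6 and 56 CPM in estrus and 18.9, 45.4, 14.5 and 7.55 CPM in VAS, and was called lower from VAS1 and VAS4 alone (logFC -1.93, FDR 0.027). VAS2 alone lay within the estrus range, and without VAS2 the call was made (logFC -1.86). Of the 16 LIF and STAT3 genes, 4 were higher and 5 lower with all 4, beside 23.2% and 17.2% of all genes. From VAS1 and VAS4 alone 5 were higher and 6 lower, beside 22.0% and 14.2%. The share higher with all 4 was near that of all genes, and without CONT1 only 1 was higher. The LIF receptor (Lifr) fell, from 403, 351 and 429 CPM in estrus to 191, 141, 136 and 141 CPM in VAS (logFC -1.37 ± 0.21, FDR 4.76e-05, and -1.25, FDR 0.00139, from VAS1 and VAS4 alone). Among EGF family genes and ErbB receptors 2 rose and 5 fell of 14, beside 23.2% and 17.2% of all genes. From VAS1 and VAS4 alone 2 rose and 3 fell, beside 22.0% and 14.2%. The share that rose was below that of all genes both ways. Erbb3 fell, with 334, 283 and 334 CPM in estrus and 138, 161, 87.1 and 81.3 CPM in VAS (logFC -1.44 ± 0.36, FDR 0.00268, and -1.53, FDR 0.0103, from VAS1 and VAS4 alone), and Hbegf, a ligand that appears at the implantation site, was not called (FDR 0.294, and 0.132 from VAS1 and VAS4 alone), at 18.9, 18.6 and 15.5 CPM in estrus and 14.8, 18.9, 12.3 and 6.28 CPM in VAS.

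Estrogen-responsive genes had a lower summed level, but a wide spread among the VAS samples, and most were not called. Of 22 tested, 0 rose and 7 fell with all 4 (median logFC -2.48), where 17.2% of all genes fell. From VAS1 and VAS4 alone 0 rose and 2 fell (median logFC -2.49), a smaller share than the 14.2% of all genes, whereas DESeq2 and limma-voom called 6 and 8 lower there. Their summed level was 21565 to 23759 CPM in estrus and 877 to 5996 CPM in VAS. In INT it was 903 to 15101 CPM. Lactotransferrin (Ltf), the classic estrogen-induced secretory protein of the epithelium, had 1875, 2848 and 2088 CPM in estrus and 713, 222, 152 and 38.1 CPM in VAS, and was not called (logFC -3.01 ± 1.65, FDR 0.13, and -2.60, FDR 0.338, from VAS1 and VAS4 alone) although no VAS value reached the lowest estrus value, and was called lower where only VAS and CONT samples were fitted. In the INT samples Ltf had 2157, 643, 27.4 and 45.3 CPM, so INT1 was within the estrus range. Padi2, a peptidylarginine deiminase, had 2345, 1825 and 2077 CPM in estrus and 410.5, 117, 70.6 and 25.9 CPM in VAS (logFC -3.74 ± 1.16, FDR 0.0116), Muc1, an apical mucin that limits attachment, had 430.1, 417 and 425 CPM in estrus and 131, 89.8, 44.1 and 20.1 CPM in VAS (logFC -2.57 ± 0.82, FDR 0.0137), and Greb1, a direct target of the estrogen receptor, had 433, 374 and 433 CPM in estrus and 155, 38.9, 81.7 and 23.1 CPM in VAS (logFC -2.47 ± 0.77, FDR 0.0117). For all 3 the order within VAS ran from VAS1, nearest to estrus, to VAS4, farthest from it. From VAS1 and VAS4 alone edgeR called none of the 3, with FDRs of 0.0877, 0.0702 and 0.0752, whereas limma-voom called all 3 and DESeq2 called Padi2 and Muc1. The 2 genes of the list that fell both ways were Fos, with 78.2, 62.6 and 74.7 CPM in estrus and 37.1, 43.9, 31.2 and 14.5 CPM in VAS (logFC -1.18 ± 0.36, FDR 0.0109, and -1.47, FDR 0.0138, from VAS1 and VAS4 alone), and Car12, a carbonic anhydrase, with 745, 839 and 799.6 CPM in estrus and 199, 95.9, 94.9 and 83.5 CPM in VAS (logFC -2.75 ± 0.57, FDR 0.000773, and -2.49, FDR 0.0137, from VAS1 and VAS4 alone).

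Of the steroid receptors themselves, the progesterone receptor (Pgr) was not called, at 379, 395 and 473 CPM in estrus and 713, 226, 276 and 395 CPM in VAS (FDR 0.894 and 0.126). The estrogen receptor Esr1 was called lower only with VAS2 and VAS3 included, at 971, 910.5 and 1071 CPM in estrus and 901, 368, 349 and 733 CPM in VAS (logFC -0.74 ± 0.25, FDR 0.0185, and -0.27, FDR 0.0778, from VAS1 and VAS4 alone), and its VAS1 value lay just below the lowest estrus value. Fkbp4, a chaperone of the progesterone receptor, behaved likewise, at 360.3, 309.8 and 324 CPM in estrus and 317, 94.1, 102 and 215 CPM in VAS (FDR 0.0221 and 0.134), with VAS1 within the estrus range. Esr1 also lost its call without CONT4, VAS2 or VAS3 (logFC -0.68 to -0.53) and Fkbp4 without CONT1, VAS2 or VAS3 (logFC -0.80 to -0.62). Of the 20 receptors and cofactors tested, 2 were higher and 4 lower with all 4 (23.2% and 17.2% of all genes), and 4 and 1 from VAS1 and VAS4 alone (22.0% and 14.2%), shares near or below those of all genes. The number lower was 1 without VAS2 or without VAS3, and the number higher was 4 without CONT4 or without VAS3.

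Epithelial markers were lower and stromal markers more often higher. Of 20 epithelial genes, 0 were higher and 16 lower (median logFC -1.74), and 0 and 11 from VAS1 and VAS4 alone (median logFC -1.36), where limma-voom and DESeq2 each called 16 lower. Their summed level was 8427 to 10176 CPM in estrus, 2173 to 4482 CPM in VAS1 and VAS4 and 1619 to 2119 CPM in VAS2 and VAS3. E-cadherin (Cdh1), the adhesion protein of epithelial junctions, had 986, 804 and 964 CPM in estrus and 471, 193, 159 and 227 CPM in VAS (logFC -1.81 ± 0.36, FDR 0.000485, and -1.40, FDR 0.00835, from VAS1 and VAS4 alone). The keratin Krt18 had 429, 327 and 417 CPM in estrus and 258, 75.9, 63.7 and 151 CPM in VAS (logFC -1.51 ± 0.37, FDR 0.0024, and -0.94, FDR 0.015, from VAS1 and VAS4 alone). Epcam was called with all 4, at 679, 466 and 589 CPM in estrus and 320.4, 77.3, 64.8 and 89.5 CPM in VAS (FDR 0.00633), and from VAS1 and VAS4 alone by limma-voom and DESeq2 but not by edgeR (FDR 0.0691). In each of these 3 genes VAS1 was the VAS sample nearest to estrus. Whether the lower level of epithelial markers has a part in the other results was not tested.

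Of 23 stromal genes, 13 were higher and 1 lower, and 16 and 1 from VAS1 and VAS4 alone (median logFC 0.84 with all 4 and 1.23 from the pair). Without VAS1 the number lower was 6, and without VAS4 it was 2. Hoxa10, a homeobox factor of the stroma needed for decidualization, had 23.3, 42.8 and 32.6 CPM in estrus and 120.4, 101, 107 and 249 CPM in VAS (logFC 2.13 ± 0.31, FDR 4.08e-05, and 2.49, FDR 4.53e-05, from VAS1 and VAS4 alone). Hoxa11 had 19.9, 38.2 and 26.5 CPM in estrus and 106, 85, 91 and 236 CPM in VAS (logFC 2.19 ± 0.33, FDR 5.17e-05, and 2.60, FDR 3.86e-05, from VAS1 and VAS4 alone). Osr2, a transcription factor of stromal cells, had 11.4, 21.3 and 16.2 CPM in estrus and 79.9, 68.9, 73 and 149 CPM in VAS (logFC 2.50 ± 0.31, FDR 1.11e-05, and 2.80, FDR 3.2e-05, from VAS1 and VAS4 alone). VAS4 was highest in all 3. Decorin (Dcn) was not called (logFC -0.82, FDR 0.087, and -0.13, FDR 0.442, from VAS1 and VAS4 alone), at 442, 573 and 521 CPM in estrus and 428, 110.0, 113 and 510.1 CPM in VAS, with VAS2 and VAS3 several fold below the rest, and was called lower without VAS1 or without VAS4 (logFC -1.07 and -1.24) and by limma-voom with all 4. The summed stromal level showed the same gap, at 9289 to 9680 CPM in estrus, 10373 to 14385 CPM in VAS1 and VAS4 and 3213 to 3709 CPM in VAS2 and VAS3. Col3a1, a fibrillar collagen, had 1760, 1637 and 1800 CPM in estrus and 3536, 532, 544 and 3197 CPM in VAS and was called, as higher, only from VAS1 and VAS4 alone (logFC 0.96, FDR 1.23e-05, against FDR 0.776 with all 4).

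**Figure D5:**
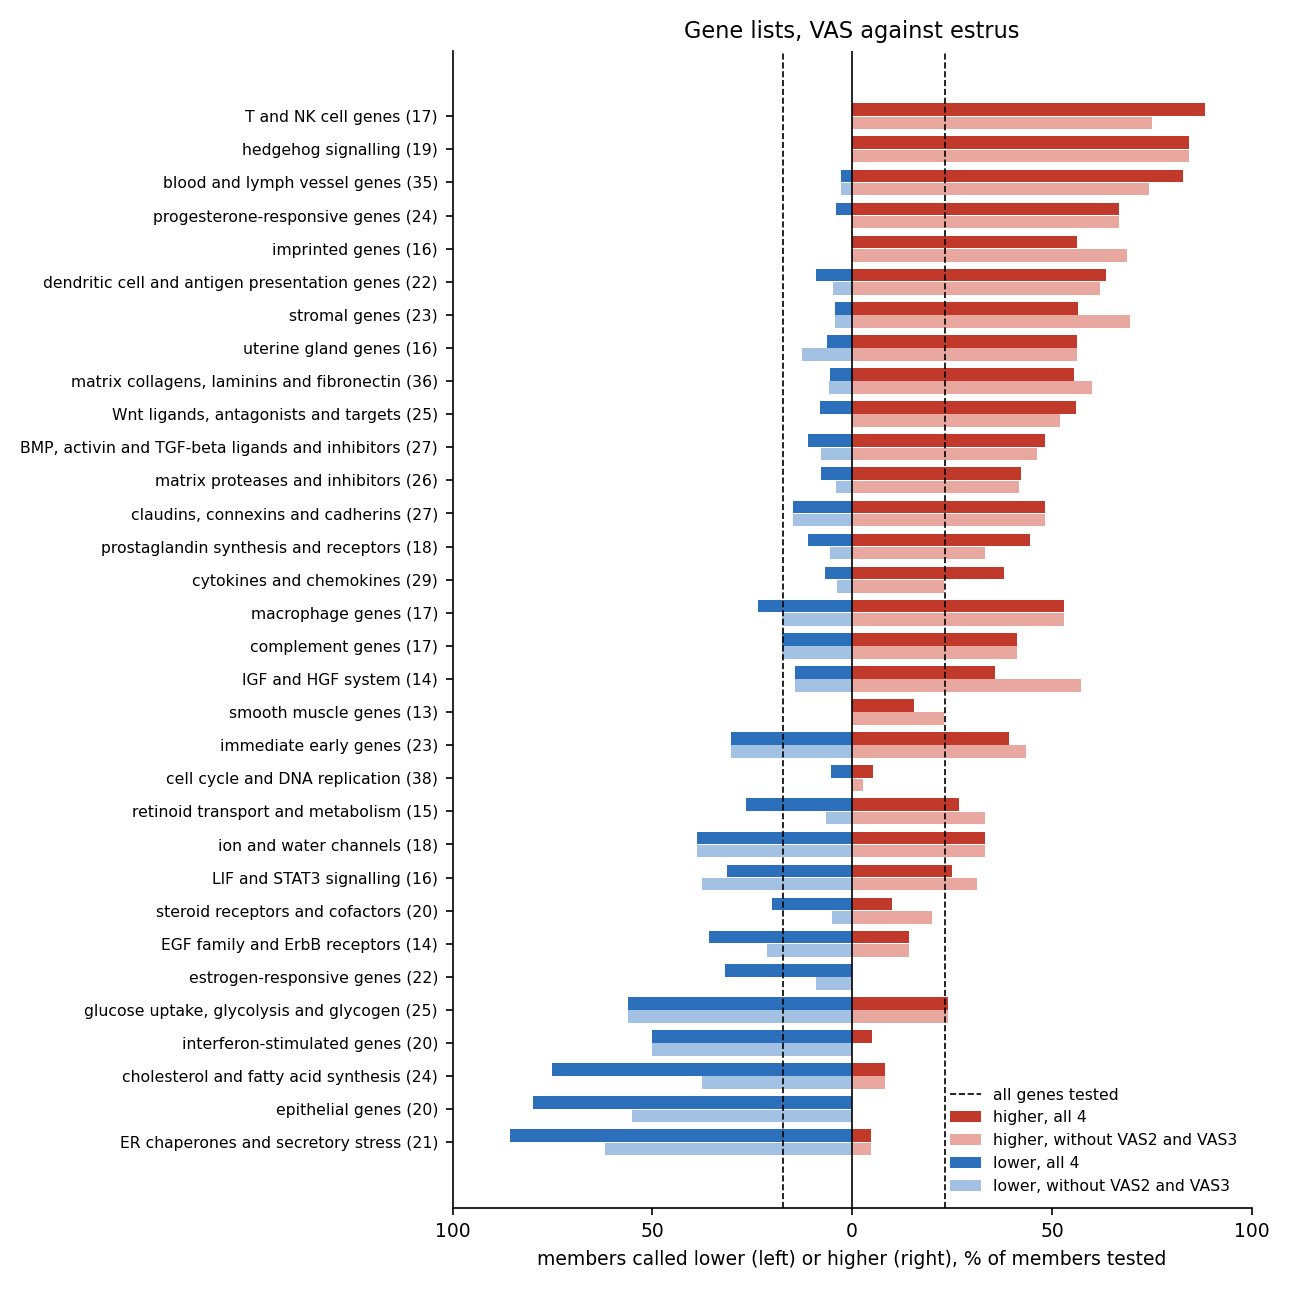
Percent of the tested members of each gene list (number in parentheses, with all 4 VAS samples) called higher (right, red) or lower (left, blue) in VAS against estrus, with pale bars for VAS1 and VAS4 alone, as a percent of the members tested there, and dashed lines at the shares of all genes tested, 23.2% and 17.2%. T and NK cell (15 of 17 higher), hedgehog (16 of 19) and vessel genes (29 of 35) stand at one end, and epithelial (16 of 20 lower) and ER chaperone genes (18 of 21) at the other.

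In the matrix of collagens, laminins and fibronectin, 20 of 36 genes were higher and 2 lower (21 and 2 of 35 from VAS1 and VAS4 alone), and without VAS1 8 were lower. One of the 20 passed the filter only through the VAS samples. Fibronectin (Fn1) had 339.5, 479 and 409 CPM in estrus and 1379, 518, 527 and 1647 CPM in VAS (logFC 1.31 ± 0.34, FDR 0.00374, and 1.88, FDR 9.96e-06, from VAS1 and VAS4 alone), and was not called when only the VAS and CONT samples were fitted (logFC 1.33). Among matrix proteases and their inhibitors 11 of 26 were higher and 2 lower (10 and 1 of 24), and 1 was lower without CONT1 or without VAS2. Of the 11, Mmp9 and 1 other passed the filter only through the VAS samples, where they are high. The protease Adamts16 had 0.594, 0.754 and 1.52 CPM in estrus and 10.5, 65.9, 51.8 and 64 CPM in VAS (logFC 5.71 ± 0.70, FDR 9.41e-06, and 5.35, FDR 0.000101, from VAS1 and VAS4 alone), Mmp2 (gelatinase A) had 58.8, 101 and 79.3 CPM in estrus and 323, 153, 168 and 421 CPM in VAS (logFC 1.74 ± 0.32, FDR 0.000286, and 2.22, FDR 2.76e-05, from VAS1 and VAS4 alone), and Adam33, the largest fall of the group, had 47.2, 42.8 and 43.1 CPM in estrus and 6.26, 7.37, 7.15 and 5.22 CPM in VAS (logFC -2.77 ± 0.28, FDR 2.57e-06, and -2.95, FDR 4.49e-05, from VAS1 and VAS4 alone). All VAS values of these 3 lay outside the estrus range, where 55.0% of all genes tested had no overlap between VAS and CONT.

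Most genes of blood and lymph vessels rose, at 29 of 35 with 1 lower (26 and 1 from VAS1 and VAS4 alone), with a median logFC of 1.26 with all 4 and 1.22 from the pair. Their summed level was 837 to 1125 CPM in estrus and 1811 to 2798 CPM in VAS. Kdr, the main receptor for vascular endothelial growth factor, had 33.5, 47.9 and 37 CPM in estrus and 128, 142, 165 and 176 CPM in VAS (logFC 1.95 ± 0.17, FDR 1.33e-06, and 1.94, FDR 1.62e-05, from VAS1 and VAS4 alone). Cdh5 (VE-cadherin), which joins endothelial cells, had 40, 57.7 and 43.1 CPM in estrus and 139, 141, 143 and 299.5 CPM in VAS (logFC 1.94 ± 0.28, FDR 3.94e-05, and 2.22, FDR 7.32e-05, from VAS1 and VAS4 alone). Pecam1, an endothelial surface marker, had 41.1, 69.8 and 54.4 CPM in estrus and 117, 124, 126 and 218 CPM in VAS (logFC 1.40 ± 0.22, FDR 8.55e-05, and 1.60, FDR 0.000197, from VAS1 and VAS4 alone). VAS4 was highest in all 3. Dll4, a Notch ligand of sprouting vessels, was the gene that fell, with 32.7, 48.2 and 37.9 CPM in estrus and 25.2, 28.4, 25 and 24.8 CPM in VAS (logFC -0.62 ± 0.15, FDR 0.00224, and -0.67, FDR 0.00841, from VAS1 and VAS4 alone), and was not called without CONT2 or without VAS3 (logFC -0.45 and -0.57). In the IGF and HGF system 5 of 14 rose and 2 fell (8 and 2), beside 23.2% and 17.2% of all genes (22.0% and 14.2%). The share that fell was near that of all genes. Igf1, a growth factor of the stroma, had 101, 156 and 119.7 CPM in estrus and 511, 361, 343 and 979.7 CPM in VAS (logFC 2.13 ± 0.31, FDR 4.14e-05, and 2.57, FDR 1.38e-05, from VAS1 and VAS4 alone). Hepatocyte growth factor (Hgf), which stroma supplies to epithelium, had 3.75, 13.4 and 6.67 CPM in estrus and 68.9, 127, 117 and 163 CPM in VAS (logFC 3.88 ± 0.39, FDR 2.5e-06, and 3.84, FDR 2.86e-05, from VAS1 and VAS4 alone), whereas Hgfac, the protease that activates it, fell, with 236, 271 and 217 CPM in estrus and 35.7, 57.5, 18 and 7.06 CPM in VAS (logFC -3.02 ± 0.93, FDR 0.0113, and -3.49, FDR 0.031, from VAS1 and VAS4 alone).

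Transcripts of natural killer (NK) and T cells were higher in VAS, at 15 of 17 with 0 lower, with a median logFC of 1.82. From VAS1 and VAS4 alone 12 of 16 were higher and 0 lower, with a median of 1.38. Of the other 3, Cd3e was then below the filter, which it passed only through the VAS samples, and 2 were tested and not called. Uterine NK cells are known to expand in the progesterone-dominated endometrium. Ncr1, a receptor that marks NK cells, had 1.25, 5.21 and 2.81 CPM in estrus and 6.43, 12.3, 14.7 and 16 CPM in VAS (logFC 1.98 ± 0.40, FDR 0.000538, and 1.82, FDR 0.00414, from VAS1 and VAS4 alone). Granzyme B (Gzmb), a protease of cytotoxic granules, had 3.03, 9.94 and 5.84 CPM in estrus and 13.8, 28.9, 31.1 and 39 CPM in VAS (logFC 2.15 ± 0.38, FDR 0.000214, and 2.04, FDR 0.00187, from VAS1 and VAS4 alone), and perforin (Prf1) had 1.61, 4.52 and 2.43 CPM in estrus and 4.68, 13.1, 11.3 and 9.67 CPM in VAS (logFC 1.75 ± 0.39, FDR 0.00123, and 1.29, FDR 0.0196, from VAS1 and VAS4 alone). The T cell receptor component Cd3g had 0.119, 0.646 and 0.227 CPM in estrus and 2.59, 8.12, 4.42 and 3.18 CPM in VAS (logFC 3.66 ± 0.52, FDR 2.89e-05, and 2.92, FDR 0.000186, from VAS1 and VAS4 alone). Il15, the cytokine on which NK cells depend, was not called (FDR 0.104, and 0.308 from VAS1 and VAS4 alone), at 14.9, 29.8 and 17.1 CPM in estrus and 23.1, 30.3, 30.3 and 30.1 CPM in VAS, with VAS1 apart from 3 near-equal values, and was called higher without CONT2 (logFC 0.83). Foxp3, the factor of regulatory T cells, had 0.28 CPM in VAS2 and 0 in VAS3 while VAS1, VAS4 and the estrus samples lay between 9.93 and 12.7 CPM, and it was not called either way by edgeR, but was called lower by limma-voom with all 4.

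Myeloid markers were divided. Macrophage genes rose in 9 and fell in 4 of 17 (9 and 3 from VAS1 and VAS4 alone), and 2 fell without CONT1, CONT2, CONT4, VAS1 or VAS3. The share that fell with all 4 was little above the 17.2% of all genes. Csf1r, the receptor for the macrophage growth factor, had 25.3, 43.6 and 31.7 CPM in estrus and 58.1, 67.6, 68.3 and 67.4 CPM in VAS (logFC 0.96 ± 0.16, FDR 0.00011, and 0.90, FDR 0.00159, from VAS1 and VAS4 alone), and Ms4a7, a membrane protein of tissue macrophages, had 3.98, 6.43 and 6.29 CPM in estrus and 17.8, 27.4, 23.9 and 18.3 CPM in VAS (logFC 1.97 ± 0.23, FDR 5.48e-06, and 1.69, FDR 7.49e-05, from VAS1 and VAS4 alone). The integrin Itgam (CD11b), carried by neutrophils and eosinophils as well as macrophages, fell, with 88, 98.6 and 90.5 CPM in estrus and 7.55, 18.4, 7.62 and 4.87 CPM in VAS (logFC -3.26 ± 0.74, FDR 0.00151, and -3.89, FDR 0.00471, from VAS1 and VAS4 alone). Eosinophil and basophil genes fell in 3 and rose in 0 of 5 (2 and 1 of 4 from VAS1 and VAS4 alone), and 1 rose without CONT4 or without VAS2. Il5ra, the interleukin 5 receptor of eosinophils, had 18.3, 20.9 and 20.2 CPM in estrus and 1.69, 2.01, 1.13 and 0.777 CPM in VAS (logFC -3.81 ± 0.64, FDR 0.000128, and -3.97, FDR 0.000817, from VAS1 and VAS4 alone), and Cd200r3, a receptor of basophils and mast cells, had 24.4, 28.9 and 17.4 CPM in estrus and 0.676, 1.77, 0.423 and 0.212 CPM in VAS (logFC -4.89 ± 1.06, FDR 0.00101, and -5.66, FDR 0.00225, from VAS1 and VAS4 alone). Every VAS value of both lay far below the lowest estrus value. Both genes, like Ly6g below, would not have passed the filter without the estrus samples, where they are high. Other members did not all follow. Alox15 was called higher from VAS1 and VAS4 alone (logFC 0.67, FDR 0.0111, and FDR 0.439 with all 4). Ccr3, which passed the filter only through the VAS samples, was not called with all 4 (logFC 0.93, FDR 0.0698). Siglecf, below the filter on low counts, had 6, 14 and 7 counts in estrus and 34, 90, 78 and 24 counts in VAS. Also below it, Prg2 had 1, 2 and 0 and 4, 22, 16 and 6, and Epx 1, 4 and 5 and 2, 0, 1 and 0. Ccl11 (eotaxin), which draws eosinophils, was called with all 4 and not from VAS1 and VAS4 alone, at 26.5, 35 and 43.1 CPM in estrus and 15.5, 4.39, 4.84 and 3.39 CPM in VAS (FDR 0.017 and 0.109), although limma-voom called it from the pair. Neutrophil genes were divided, with 3 higher and 1 lower of 6, and 1 higher without VAS2 or without VAS3. Of the 3 that rose, Mmp9 and Cxcl5 passed the filter only through the VAS samples and were not tested from VAS1 and VAS4 alone, where 1 rose and 1 fell of 3. Cxcl5 was also not called without any 1 of CONT1, CONT2, CONT4, VAS2 and VAS3 (logFC 2.42 to 3.89). Ly6g, the marker by which neutrophils are usually sorted, fell, with 11.3, 7.04 and 9.33 CPM in estrus and 3.21, 1.21, 1.22 and 0.282 CPM in VAS (logFC -2.62 ± 0.78, FDR 0.00922, and -2.35, FDR 0.0426, from VAS1 and VAS4 alone), and Csf3r, the G-CSF receptor, rose, with 1.31, 2.87 and 2.88 CPM in estrus and 12.6, 30.9, 36 and 8.4 CPM in VAS (logFC 3.22 ± 0.47, FDR 3.59e-05, and 2.15, FDR 0.000159, from VAS1 and VAS4 alone). Below the filter, Cxcr2 had 0, 2 and 1 counts in estrus and 44, 175, 252 and 14 counts in VAS. S100a8 had 1, 43 and 1 and 29, 136, 171 and 24, and S100a9 had 0, 66 and 0 and 30, 143, 217 and 18. In both S100 genes CONT2 lay above VAS1 and VAS4. Mpo and Camp went the other way, Mpo with 8, 3 and 5 and 4, 0, 2 and 0, and Camp with 7, 5 and 7 and 5, 2, 0 and 6. The summed neutrophil level was 17.9 to 21.1 CPM in estrus, 21.7 to 34.0 CPM in VAS1 and VAS4 and 100 to 108 CPM in VAS2 and VAS3. The inflammatory genes Il1a and Ptgs2 were high in VAS2: Ptgs2 (cyclooxygenase 2) had 9.27, 26.6 and 11.4 CPM in estrus and 9.08, 147, 13.8 and 4.24 CPM in VAS, and Il1a (interleukin 1 alpha) had 22.2, 39.2 and 30.5 CPM in estrus and 2.82, 41.9, 1.98 and 0.988 CPM in VAS, neither called by edgeR (FDR 0.35 and 0.441, and 0.464 and 0.0906 from VAS1 and VAS4 alone), whereas limma-voom called Il1a lower both ways and DESeq2 from VAS1 and VAS4 alone. Without VAS2, Il1a was called lower (logFC -3.94). VAS2 stood above the other 3 in both, whereas VAS3, which shares its unusual read distribution, did not.

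Antigen presentation and dendritic cell genes were higher in 14 of 22 and lower in 2 (13 and 1 of 21), and in 1 without any 1 of CONT1, CONT2, CONT4, VAS2 and VAS3. Of the 14, 2 passed the filter only through the VAS samples, where they are high, while their summed level was 1903 to 2173 CPM in estrus and 943 to 2054 CPM in VAS. Cd83, a marker of mature dendritic cells, had 0.773, 2.37 and 1.36 CPM in estrus and 13.9, 25.9, 22.9 and 32.3 CPM in VAS (logFC 3.94 ± 0.39, FDR 2.26e-06, and 3.87, FDR 2.76e-05, from VAS1 and VAS4 alone), and Itgax (CD11c) had 6, 13.7 and 8.34 CPM in estrus and 22, 34.1, 43.7 and 33.8 CPM in VAS (logFC 1.83 ± 0.28, FDR 5.27e-05, and 1.56, FDR 0.000789, from VAS1 and VAS4 alone). Interferon-stimulated genes were lower, with 1 higher and 10 lower of 20, and 0 and 10 from VAS1 and VAS4 alone, 8 of them the same genes (median logFC -0.96 with all 4 and -1.13 from the pair), and 0 were higher without CONT1, CONT2, VAS2 or VAS3. Ifit1 had 91.3, 56.7 and 82.2 CPM in estrus and 28.7, 52.6, 37.3 and 33.7 CPM in VAS (logFC -1.01 ± 0.40, FDR 0.0408, and -1.30, FDR 0.0427, from VAS1 and VAS4 alone), and was not called without CONT1, CONT4, VAS1, VAS3 or VAS4 (logFC -0.97 to -0.87). Mx1, an antiviral GTPase, was called with all 4, at 125, 90.9 and 111 CPM in estrus and 36.5, 33.6, 26.5 and 7.98 CPM in VAS (FDR 0.0201), but not without CONT1 (logFC -1.95), and from VAS1 and VAS4 alone it was called by limma-voom and DESeq2 and not by edgeR (FDR 0.0536). Of 17 complement genes 7 rose and 3 fell, and again 7 and 3 from VAS1 and VAS4 alone, of which 6 and 2 were the same genes (5 and 6 lower by DESeq2 and limma-voom from the pair), with a summed level of 6665 to 8693 CPM in estrus and 942 to 1987 CPM in VAS. The share of complement genes that fell with all 4 was near the 17.2% of all genes. Complement C3, one of the most abundant secreted products of the estrous uterus, had 5013, 6612 and 5692 CPM in estrus and 1012, 429, 210.4 and 124 CPM in VAS and was called with all 4 (logFC -3.70 ± 1.21, FDR 0.0159), and from VAS1 and VAS4 alone by limma-voom and DESeq2 but not by edgeR (FDR 0.0979). Of the cytokines and chemokines 11 of 29 were higher and 2 lower (6 and 1 of 26). Of the 11, 3 passed the filter only through the VAS samples, where they are high, and were not tested from VAS1 and VAS4 alone. Among the others was Cxcl12, which holds NK and endothelial cells in tissue, with 17.4, 28.8 and 25.8 CPM in estrus and 74.4, 144, 133 and 174 CPM in VAS (logFC 2.45 ± 0.27, FDR 4.25e-06, and 2.37, FDR 5.96e-05, from VAS1 and VAS4 alone). Of 8 B cell and antibody genes 4 were higher and 2 lower (2 and 1), and 1 was higher without CONT1 or without CONT4 and 2 without VAS4, and 1 was lower without CONT1. The summed level of the B cell and antibody list was 1029 to 1463 CPM in estrus and 375 to 708 CPM in VAS, which is not a measure of B cells. Pigr alone held 515, 870 and 580 CPM of it in estrus and 179, 241, 118 and 53.2 CPM in VAS. Jchain rose instead, from 2.62, 12.3 and 3.56 CPM to 19.9, 39.4, 14.5 and 23.1 CPM (FDR 0.0163, and 0.0502 from VAS1 and VAS4 alone). Igha also rose (FDR 0.0462, and 0.0503 from VAS1 and VAS4 alone). The median log2 CPM of the list was 3.34, 4.69 and 3.25 in estrus and 5.41, 5.67, 4.66 and 5.23 in VAS.

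Wnt ligands, antagonists and targets rose in 14 and fell in 2 of 25 (13 and 0 from VAS1 and VAS4 alone), with a median logFC of 1.88 with all 4 and 1.69 from the pair, and with any 1 CONT or VAS sample left out 0 or 1 fell. Wnt11 had 0.238, 0.682 and 1.52 CPM in estrus and 13.8, 29.8, 37.3 and 46.2 CPM in VAS (logFC 5.34 ± 0.57, FDR 3.72e-06, and 5.28, FDR 3.57e-05, from VAS1 and VAS4 alone). Wnt7a, an epithelial ligand, and Wnt4, a stromal one in decidualization, were not called (FDR 0.923 and 0.277, and 0.653 and 0.338 from VAS1 and VAS4 alone). Wnt7a had 42.9, 40.3 and 55 CPM in estrus and 99.2, 21.9, 39 and 16.3 CPM in VAS, so the VAS values lay on both sides of estrus. In the BMP, activin and TGF-beta group 13 of 27 rose and 3 fell (12 and 2 of 26), and 5 fell without VAS1. One of the 3 passed the filter only through the estrus samples, where it is high. Follistatin (Fst), which binds activin, had 1.49, 5.53 and 3.56 CPM in estrus and 25.3, 56.5, 51.6 and 70.5 CPM in VAS (logFC 3.82 ± 0.44, FDR 5.88e-06, and 3.72, FDR 6.6e-05, from VAS1 and VAS4 alone), and Bmp7 had 15, 20.3 and 18.4 CPM in estrus and 56.8, 40.5, 59.7 and 55 CPM in VAS (logFC 1.56 ± 0.22, FDR 2.92e-05, and 1.64, FDR 0.000141, from VAS1 and VAS4 alone). Bmp2, a ligand of the decidual response, was not called, at 5.53, 9.37 and 8.19 CPM in estrus and 3.95, 7.65, 5.88 and 6 CPM in VAS (FDR 0.424, and 0.305 from VAS1 and VAS4 alone).

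Ion and water channels were divided, with 6 higher and 7 lower of 18 with all 4 and again from VAS1 and VAS4 alone, of which 6 and 6 were the same genes, and 4 lower without CONT4. One of the 7 passed the filter only through the estrus samples. Ano2, a calcium-gated chloride channel, had 0.238, 0.179 and 0.152 CPM in estrus and 2.31, 30.5, 32.2 and 26 CPM in VAS (logFC 6.85 ± 0.94, FDR 2.3e-05, and 6.15, FDR 0.00031, from VAS1 and VAS4 alone). Scnn1a, a subunit of the epithelial sodium channel through which fluid is absorbed from the lumen, had 1.78, 2.3 and 2.2 CPM in estrus and 3.04, 8.77, 8.84 and 6.71 CPM in VAS (logFC 1.70 ± 0.34, FDR 0.000482, and 1.20, FDR 0.00922, from VAS1 and VAS4 alone). Aqp5, a water channel of glands, fell, with 147, 135 and 132 CPM in estrus and 27, 12.1, 13.2 and 8.05 CPM in VAS (logFC -3.19 ± 0.73, FDR 0.00151, and -2.97, FDR 0.0187, from VAS1 and VAS4 alone). Cftr, the chloride channel of fluid secretion, had 424, 379 and 429.6 CPM in estrus and 161, 135, 46.2 and 5.22 CPM in VAS. Its spread within VAS was wide, and it was not called (FDR 0.16, and 0.287 from VAS1 and VAS4 alone). Claudins, connexins and cadherins rose in 13 and fell in 4 of 27 both ways, the latter near the shares of all genes that fell (17.2% and 14.2%). Their summed level was 2303 to 2349 CPM in estrus and 1362 to 2125 CPM in VAS. Among them were Cldn1 at 4.64, 8.04 and 9.02 CPM in estrus and 20.9, 37.7, 28.4 and 31.2 CPM in VAS (logFC 2.03 ± 0.29, FDR 3.61e-05, and 1.85, FDR 0.000457, from VAS1 and VAS4 alone) and Cldn7 at 291, 221 and 223 CPM in estrus and 114, 48.1, 36.7 and 39.4 CPM in VAS (logFC -2.04 ± 0.46, FDR 0.00152, and -1.67, FDR 0.0242, from VAS1 and VAS4 alone). In prostaglandin synthesis and signalling 8 of 18 rose and 2 fell (6 and 1), and 4 fell without VAS1 or without VAS4 and 1 without VAS3. Pla2g10, a secreted phospholipase, had 0.357, 0.467 and 0.834 CPM in estrus and 6.37, 20.8, 17.1 and 34.9 CPM in VAS (logFC 5.19 ± 0.56, FDR 4.03e-06, and 5.26, FDR 4.32e-05, from VAS1 and VAS4 alone), and Ptges, a prostaglandin E synthase, had 6.18, 8.33 and 9.33 CPM in estrus and 15.2, 18.9, 19 and 12.8 CPM in VAS (logFC 1.05 ± 0.20, FDR 0.000336, and 0.81, FDR 0.00557, from VAS1 and VAS4 alone).

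Of 15 retinoid genes 4 were higher and 4 lower (5 and 1), beside 23.2% and 17.2% of all genes tested. The number lower was 7 without VAS1 and 2 without CONT2, VAS2 or VAS3, and the number higher was 2 without CONT1 or without CONT2. One of the 4 that rose passed the filter only through the VAS samples. Stra6, the receptor for retinol uptake, rose and was tight across the VAS samples, with 3.75, 7.32 and 6.37 CPM in estrus and 72.5, 65.3, 80.1 and 78.8 CPM in VAS (logFC 3.66 ± 0.28, FDR 6.26e-07, and 3.69, FDR 7.41e-06, from VAS1 and VAS4 alone). Cyp26a1, which degrades retinoic acid and is induced by progesterone in the epithelium, had 0.416, 0.359 and 1.36 CPM in estrus and 11.7, 2.29, 30.9 and 41.2 CPM in VAS and was called both ways (FDR 0.0204 and 0.0255), with VAS2 far below the others. It was not called without CONT1 or without CONT2 (logFC 4.75 and 4.62). Lrat, which stores retinol as ester, fell, with 46.4, 69.1 and 58.5 CPM in estrus and 3.44, 11.9, 11.5 and 8.19 CPM in VAS (logFC -2.73 ± 0.92, FDR 0.0188, and -3.33, FDR 0.0365, from VAS1 and VAS4 alone). Aldh1a2, which makes retinoic acid, was called lower only with VAS2 and VAS3 included, at 239, 310.1 and 261 CPM in estrus and 249, 67.4, 95.7 and 102 CPM in VAS (FDR 0.0179 and 0.164), with VAS1 within the estrus range, and was not called without CONT2, VAS2 or VAS3 (logFC -0.96 to -0.83).

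In the lists of chaperone, lipid synthesis and glucose genes, more members were called lower than higher. Of 21 chaperones and other genes of the endoplasmic reticulum (ER), 1 was higher and 18 lower (1 and 13 from VAS1 and VAS4 alone), with a median logFC of -1.06 with all 4 and -0.70 from the pair. Hspa5 (BiP), the main ER chaperone, had 1189, 956 and 1213 CPM in estrus and 728, 145, 143 and 481 CPM in VAS (logFC -1.58 ± 0.43, FDR 0.00522, and -0.89, FDR 0.00943, from VAS1 and VAS4 alone), and was not called when only the VAS and CONT samples were fitted (logFC -1.56). Cholesterol and fatty acid synthesis genes rose in 2 and fell in 18 of 24 (2 and 9 from VAS1 and VAS4 alone, where DESeq2 and limma-voom called 12 and 14 lower), with a median logFC of -1.36 with all 4 and -1.23 from the pair. Acaca, the first enzyme of fatty acid synthesis, was one of the 2 that rose, at 128, 101 and 105 CPM in estrus and 183, 196, 203 and 230.0 CPM in VAS (logFC 0.87 ± 0.13, FDR 4.06e-05, and 0.89, FDR 0.000351, from VAS1 and VAS4 alone). Of 25 genes of glucose uptake, glycolysis and glycogen 6 rose and 14 fell with all 4 and again from VAS1 and VAS4 alone, of which 6 and 13 were the same genes. The share that rose with all 4 was near the 23.2% of all genes. The glucose transporters went opposite ways: Slc2a3 had 13.7, 17.2 and 17.8 CPM in estrus and 114, 199, 173 and 423 CPM in VAS (logFC 3.81 ± 0.40, FDR 3.5e-06, and 4.05, FDR 2.46e-05, from VAS1 and VAS4 alone), and Slc2a1 had 98.9, 82.5 and 80.6 CPM in estrus and 37, 67.5, 37.2 and 25.6 CPM in VAS (logFC -1.06 ± 0.43, FDR 0.0441, and -1.48, FDR 0.0269, from VAS1 and VAS4 alone). The call of Slc2a1 was lost without any of CONT1, CONT2, CONT4, VAS1, VAS3 and VAS4 (logFC -1.12 to -0.89). Lactate dehydrogenase A (Ldha) fell, with 925, 612 and 759.5 CPM in estrus and 443, 91.6, 84.2 and 225 CPM in VAS (logFC -1.86 ± 0.45, FDR 0.0022, and -1.20, FDR 0.0104, from VAS1 and VAS4 alone). For Hspa5 and Ldha, VAS2 and VAS3 lay below VAS1 and VAS4.

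Calls among proliferation genes moved with the samples included. Of 38 cell cycle and replication genes 2 were higher and 2 lower (median logFC -0.28), and 1 and 0 from VAS1 and VAS4 alone (median logFC -0.02), but without VAS1 17 were lower. With all 4, both shares were far below the 23.2% and 17.2% of all genes. The number lower was 4 without CONT4 and 0 without CONT1, VAS2, VAS3 or VAS4, and the number higher was 1 without CONT1, CONT4, VAS1 or VAS3. Mki67, a protein of dividing cells, had 848, 462 and 489 CPM in estrus and 699, 250.0, 308 and 386 CPM in VAS (FDR 0.213, and 0.776 from VAS1 and VAS4 alone). Its VAS1 value lay within the estrus range and the other 3 below it, and without VAS1 it was called lower (logFC -0.93). Ccnd2, a D-type cyclin, rose, with 28.6, 32.6 and 40.4 CPM in estrus and 76.1, 91.6, 93.6 and 118 CPM in VAS (logFC 1.49 ± 0.17, FDR 5.18e-06, and 1.52, FDR 6.6e-05, from VAS1 and VAS4 alone). Immediate early genes rose in 9 and fell in 7 of 23 (10 and 7). Egr1 had 11.4, 16.2 and 17.9 CPM in estrus and 47.1, 28.3, 53 and 32.8 CPM in VAS (logFC 1.41 ± 0.43, FDR 0.0107, and 1.40, FDR 0.0284, from VAS1 and VAS4 alone), with no call without CONT1 (logFC 1.24), and Ier3 had 258, 199 and 218 CPM in estrus and 58.5, 57.1, 25.8 and 31.8 CPM in VAS (logFC -2.38 ± 0.62, FDR 0.00397, and -2.32, FDR 0.0278, from VAS1 and VAS4 alone), and Fos fell as given above.

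In the Cyp3a cluster, which encodes steroid-metabolizing cytochromes, 3 of 4 rose and 1 fell both ways. Cyp3a25 had 0 counts in each estrus sample and 0.62, 2.15, 1.88 and 3.6 CPM in VAS, at least 12.1-fold higher when estrus is set to a floor of 3 counts per sample (12.4-fold from VAS1 and VAS4). Cyp3a59 had 0.119, 0 and 0.0758 CPM in estrus and 1.97, 8.49, 7.29 and 13.8 CPM in VAS (ratio 146, 95% exact counting interval 49.8 to 712, and 139, 46.9 to 679, from VAS1 and VAS4 alone). Cyp3a13 was the one called lower, with 4.52, 5.13 and 5.46 CPM in estrus and 0.113, 1.21, 0.47 and 0.988 CPM in VAS (logFC -2.84 ± 0.53, FDR 0.000319, and -3.25, FDR 0.000673, from VAS1 and VAS4 alone). It passed the filter only through the 3 estrus samples, where it is high, and with any of them left out it was not tested. These genes are close relatives, and reads shared between them could have been divided by the counting. Imprinted genes were higher in 9 and lower in 0 of 16 (11 and 0), and in 2 without VAS1 or without VAS4. The noncoding RNA H19 had 1.13, 1.11 and 0.834 CPM in estrus and 10.3, 24.9, 33.1 and 24.6 CPM in VAS (logFC 4.47 ± 0.45, FDR 2.57e-06, and 4.05, FDR 3.3e-05, from VAS1 and VAS4 alone), and Igf2, its reciprocally imprinted neighbour, had 1.07, 0.969 and 0.834 CPM in estrus and 3.66, 7, 10.3 and 5.65 CPM in VAS (logFC 2.78 ± 0.33, FDR 6.65e-06, and 2.26, FDR 5.29e-05, from VAS1 and VAS4 alone). Motile cilia genes were mixed, at 3 higher and 2 lower of 8 (1 and 1), and 4 lower without VAS1 and 1 without CONT1 or VAS3.

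Markers of other tissues and of what mating could have brought in were looked at in the same way. Of 13 smooth muscle genes 2 were higher and 0 lower (3 and 0), 4 were higher without VAS2 and 2 lower without VAS4, with a summed level of 539 to 1067 CPM in estrus and 707 to 1331 CPM in VAS, so muscle markers were present in both groups. The shares higher and lower with all 4 were below the 23.2% and 17.2% of all genes. Red blood cell genes were higher in 4 of 5 (5 of 5 from VAS1 and VAS4 alone, and 2 without CONT4), at 27.9 to 39.8 CPM in estrus and 33.8 to 105 CPM in VAS. Mesothelium and fat genes were higher in 1 and lower in 0 of 7 (2 and 4), and lower in 2 without VAS3. The 8 sperm genes summed to at most 1.12 CPM in any VAS sample, 0.905 CPM in any estrus sample and 0.973 CPM in any INT sample. The 8 seminal vesicle genes summed to at most 0.140 CPM in VAS, 0.179 CPM in estrus and 0.556 CPM in INT. None of either list passed the filter. Of 9 blastocyst genes only Gata6 passed, and it was not called (FDR 0.0828, and 0.553 from VAS1 and VAS4 alone), but was called higher without VAS1 (logFC 1.13). Cdx2 and Nanog, which define the trophectoderm and the inner cell mass, had 0 counts and at most 2 counts in any VAS sample. In INT, Cdx2 also had 0 counts in each sample and Nanog had 2, 1, 1 and 0. These markers were as low after intact mating, so they cannot show whether an embryo was present.

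The largest rises and falls were taken from 3034 protein-coding genes called both ways, with no overlap between groups, no opposite-strand exons and a mean of at least 5 CPM in the higher group. Beside Acod1, Ano2, Cxcl15 and Cyp3a59, described above, the 10 largest rises held Adarb2, a brain relative of the RNA-editing deaminases, with 0.0594, 0.0718 and 0 CPM in estrus and 2.76, 37.7, 20.3 and 18.3 CPM in VAS (ratio 399, 95% exact counting interval 136 to 1938, and 186, 63.1 to 907, from VAS1 and VAS4 alone). St6gal2, a sialyltransferase, had 0, 0.0359 and 0.152 CPM and 1.8, 26.3, 13.4 and 9.11 CPM (ratio 260.4, 95% exact counting interval 88.9 to 1265, and 97.2, 32.7 to 476, from VAS1 and VAS4 alone). Norrin (Ndp), a ligand that activates Wnt receptors in vessels, had 0.178, 0.359 and 0.227 CPM in estrus and 10.5, 27.2, 30.9 and 36.4 CPM in VAS (logFC 6.57 ± 0.50, FDR 6.79e-07, and 6.39, FDR 8.73e-06, from VAS1 and VAS4 alone). Ankfn1 had 0.0594, 0.179 and 0.227 CPM in estrus and 6.88, 12.7, 19.1 and 17 CPM in VAS (logFC 6.43 ± 0.50, FDR 7.24e-07, and 6.19, FDR 7.84e-06, from VAS1 and VAS4 alone). Fam83a had 0.178, 0.179 and 0 CPM in estrus and 3.72, 14.6, 15 and 11.2 CPM in VAS (logFC 6.30 ± 0.68, FDR 3.85e-06, and 5.69, FDR 4.54e-05, from VAS1 and VAS4 alone), and Drd4, a dopamine receptor, had 0, 0.0359 and 0.303 CPM in estrus and 1.41, 9.1, 10.9 and 6.57 CPM in VAS (logFC 6.12 ± 0.88, FDR 3.55e-05, and 5.35, FDR 0.000348, from VAS1 and VAS4 alone). In each of these 10 VAS1 was the lowest VAS sample. That it lay above estrus follows from the rule of no overlap by which they were taken.

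Beside Cd200r3 and Il5ra, the 10 largest falls held Apobec2, with 164, 166 and 148 CPM in estrus and 12, 16.4, 1.46 and 0.847 CPM in VAS (logFC -4.36 ± 1.32, FDR 0.0101, and -4.61, FDR 0.0367, from VAS1 and VAS4 alone), and Lvrn (laeverin), a membrane aminopeptidase, with 79, 117 and 87.3 CPM in estrus and 6.76, 5.74, 4.47 and 2.05 CPM in VAS (logFC -4.31 ± 0.57, FDR 1.67e-05, and -4.40, FDR 0.000451, from VAS1 and VAS4 alone). Lvrn was low in all 4 VAS samples, whereas Apobec2 was several fold higher in VAS1 and VAS2 than in VAS3 and VAS4. Otop1, a proton channel, had 28.1, 36.2 and 33.1 CPM in estrus and 1.41, 5.55, 0.0941 and 0.0706 CPM in VAS (logFC -4.16 ± 1.61, FDR 0.037, and -5.36, FDR 0.0307, from VAS1 and VAS4 alone), and Padi3, a relative of Padi2, had 40.4, 61.2 and 49.8 CPM in estrus and 2.48, 7.37, 0.423 and 0 CPM in VAS (logFC -4.27 ± 1.61, FDR 0.0326, and -5.27, FDR 0.0342, from VAS1 and VAS4 alone). Both calls were lost without any of CONT1, CONT2, CONT4, VAS1, VAS3 and VAS4, with logFC of -4.26 to -3.73 for Otop1 and -4.42 to -3.88 for Padi3. B3galt5, a galactosyltransferase, had 63, 48.7 and 50.6 CPM in estrus and 8.23, 4.85, 1.03 and 0.353 CPM in VAS (logFC -3.89 ± 1.18, FDR 0.01, and -3.63, FDR 0.0481, from VAS1 and VAS4 alone). Elfn1, March4 and Stk32a completed the 10, with logFC of -4.34, -4.10 and -3.64, and -4.95, -4.28 and -3.18 from VAS1 and VAS4 alone. These 3, as Cd200r3 and Il5ra, passed the filter only through the estrus samples. The division within VAS recurred in the INT samples, where Apobec2 had 107, 24.3, 1.14 and 1.33 CPM.

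Compared with INT, the samples of intact mating from the same day, no gene of 17222 was called in edgeR (0.0%), with a lowest FDR of 0.452. At an unadjusted p below 0.05 there were 1831 genes, and 146 from VAS1 and VAS4 alone, and DESeq2 also called 0. With limma-voom, 19 genes were higher and 1642 lower with all 4 (lowest FDR 0.0211), and 0 were called from VAS1 and VAS4 alone. Leaving out VAS1 gave 109 genes higher and 465 lower, and leaving out VAS4 gave 8 and 125. The INT samples divided along the same axis as VAS1 and VAS4, so the spread within each group was wide. Ihh had 23.6, 24.1, 48.8 and 47 CPM in INT1 to INT4 beside 18.7, 33.6, 32.7 and 45.5 CPM in VAS, and Gli1 had 101, 115, 197 and 185 CPM beside 84.4, 118, 114 and 183 CPM. Padi2 had 949.9, 529.8, 24.9 and 34.1 CPM beside 410.5, 117, 70.6 and 25.9 CPM, and Itgam 43.9, 18.4, 4.39 and 4.06 CPM beside 7.55, 18.4, 7.62 and 4.87 CPM, with INT1 nearest to estrus in both. The absence of calls does not show that the VAS and INT endometrium were alike.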

How the data were processed

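Endometrial RNA from the 4 VAS, 3 CONT and 4 INT samples was considered. According to the authors' methods and the labels, total RNA was extracted with Trizol, treated with DNase and made into stranded total RNA libraries, which were sequenced from both ends, aligned with STAR to GRCm38 and assigned to genes with featureCounts. What the authors deposited is a table of whole-number counts for each gene, not normalized. The strand setting and the tool versions are not given in the sources used here. The study calls the estrus and intact-mated samples pooled biological replicates. For the VAS samples the sources used here do not say whether they came from separate animals, so the spread between them may be technical. The p-values rest on the spread within all 5 groups fitted together, not on that of VAS and CONT alone. With only VAS and CONT fitted, the lowest FDR was 0.00284, against 5.39e-07 in the main fit.

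Counts of all 19 samples in 5 groups were fitted together in edgeR 4.0.16 (R 4.3.3) with TMM scaling and the quasi-likelihood test, for genes that reached 3 CPM in 3 or more samples. A gene was called at a Benjamini-Hochberg FDR of at most 0.05 and a fold of at least 1.5, with p-values adjusted over all genes tested. The error after ± beside a logFC is its standard error, and CPM are given per sample. The fit was repeated without VAS2 and VAS3, and with the other settings given in the closing section, which used DESeq2 1.42.0 and limma 3.58.1. The script was tested on simulated data.

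The column prefix, not the sample title, set the group. Gene symbols were found for 48349 of 49089 gene IDs, and gene types came from GENCODE. The gene lists, the members of the comparison and the tests were chosen with earlier results of these data known, so no list is independent evidence of its direction. Named genes are the first 4 of each list that passed the filter, the largest called rise and fall of each list, and the 10 largest rises and falls among genes called both with and without VAS2 and VAS3 with no overlap between groups, no opposite-strand exons and a mean of at least 5 CPM. Some of these add nothing or are not reported here. Car12, Gzmb, Hand2, Ncr1, Nr2f2 and Prf1 were named after their values were seen. Bounds for genes with 0 counts use a floor of 3 counts per sample, and the 95% intervals of ratios of pooled counts are exact binomial and cover counting error only. PCR duplicates could not be told apart.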

Additional observations from a re-analysis of the deposited data

Results flagged for a closer look

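Within the 4 VAS samples, 11 of 125 sets of values (119 named genes and 6 library measures) had 1 sample whose gap to the nearest, as a share of the range, passed Dixon's 95% limit for 4 values. Chance gives about 1 in 20, or 6.25 of 125. VAS1 was the low sample in log2 CPM for Foxa2 (0.972), Adamts16 (0.868), Ano2 (0.917), Csf1r (0.912) and Il15 (0.978), and the high one for Lifr (0.891) and Car12 (0.841). VAS4 was the high sample for Cdh5 (0.964), Pecam1 (0.881) and Nr2f2 (0.942). VAS2 was the high sample for Dll4 (0.879). VAS2 and VAS3 lie close together, and this measure, which looks for 1 sample apart, cannot pick out such a pair. In each of the 7 with VAS1 apart its value lay on the estrus side of the other 3. No cause was tested.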

How the results depend on the processing

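Of 103 named genes called, 73 were called under every one of the 18 alternative settings fixed at the outset that tested them, and none of the called genes changed direction under any of them. Fewest remained without the pair VAS2 and VAS3 (88 of 100 tested) and with the test set against the fold threshold (87 of 103). Some named genes were taken because they were called with and without this pair, so their part in these numbers was fixed by that choice. Of all genes called with all 4, 80.7% of the higher and 67.3% of the lower were also called without the pair. DESeq2 and DESeq2's size factors kept all 103, upper quartile scaling 98 and limma-voom 94. Acod1, Adarb2, Ano2, Calca, Cxcl5, Cyp26a1, Prss28, Spink1 and St6gal2, which rose, were the genes that limma-voom did not call. Over all genes, limma-voom gave 4852 lower and the fold-threshold test 1390 lower. With no filter on low counts 5290 were higher and 3902 lower of 36300 genes, and with filterByExpr 5009 and 3724 of 22434. With only the VAS and CONT samples fitted, 3413 were higher and 2190 lower of 16371, and 95 of 100 named genes tested kept their call, Aldh1a2, Esr1, Fkbp4, Fn1 and Hspa5 being those that did not. In an alternative chosen after the data were seen, restricting to genes with no gene on the opposite strand and leaving out VAS2 and VAS3 gave 2463 higher and 1348 lower. Without VAS2 and VAS3, limma-voom kept 94 and DESeq2 93 of the 100 named genes tested. Upper quartile scaling moved the median logFC of all genes by 0.20. Leaving out 1 sample gave 3655 to 4297 genes higher and 2294 to 3926 lower than estrus. Without VAS2 and VAS3 the first component held 86.8% of the variance. Against INT, limma-voom called 19 higher and 1642 lower, and leaving out 1 sample gave 0 to 109 higher and 0 to 465 lower, the highest values without VAS1. The cause of these moves was not tested. The median logFC of 4 lists changed sign: LIF and STAT3 genes from -0.32 to 0.07 and complement genes from 0.24 to -0.15 without VAS2 and VAS3, retinoid genes from -0.02 to 0.27 without VAS2 and VAS3 and 0.16 under upper quartile scaling, and mesothelium and fat genes from -0.12 to 0.11 under upper quartile scaling, which moved all genes by about as much.

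With the replicate number as a block, 3859 genes were higher and 2910 lower than estrus, and 0 were called against INT. Same-numbered CONT and VAS samples correlated in their deviations at 0.297, 0.130 and 0.0668. Each CONT sample correlated best with the VAS sample of its own number, but CONT2 correlated almost as well with VAS3 (0.126). This is at most a hint from the data and not from the design. The numbers are therefore not taken as pairs. Of the named genes, Cxcl5 and Prss28 lost their calls under the block.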
